A study of Zea mays with 8 samples.

Results

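The 4 maize genes Zx1 (Zm00001d024207), Zx2 (Zm00001d024208), Zx3 (Zm00001d024210) and Zx4 (Zm00001d024211) are the beta-macrocarpene synthases of the TPS6/TPS11 gene cluster. They were taken by identifier from a deposited table of 44135 gene identifiers, and all 4 were listed. The table holds messenger RNA levels of 8 leaf libraries of Zea mays Var. Golden Queen, a cultivar other than the B73 line of the genome build. The plants were 14 d old, at stage V-3, and the sampled leaf was leaf 4, which had emerged and was still expanding. In the group labelled SLB, 4 libraries came from leaves sampled at 24 h after a spore suspension labelled SLB, which in the published study stands for southern leaf blight, the disease caused by the fungus Cochliobolus heterostrophus. In the control group, 4 libraries came from leaves sampled at 24 h after 0.1% Tween 20 in water, with no spores. The labels give no genotype difference between the groups, and they do not say whether each library was a separate plant or a pool. The spread behind each p-value is therefore that among these 8 libraries and could be technical.

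Zealexins are acidic sesquiterpenoids that maize makes in response to fungal attack and some insect feeding, and they slow the growth of fungi. Their synthesis starts when terpene synthases of this cluster cyclise farnesyl diphosphate, by way of a bisabolyl intermediate, to the hydrocarbon beta-macrocarpene. Cytochrome P450 enzymes of the CYP71Z family then oxidise beta-macrocarpene to the first zealexin acids, and P450 enzymes of the CYP81A family modify these further. The kauralexins and dolabralexins, the diterpenoid phytoalexins named in the series' subject, start from another precursor and have their own synthases, of which An2, KSL2 and KSL4 are used below for comparison.

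Values are FPKM as the authors deposited them, a count of sequenced fragments corrected for transcript length and for the number mapped in a library, so levels of different genes can be set side by side. The sequencing depth is unknown, and the values carry no interval for counting error. The summed FPKM of a library was 706734 to 755209 in the SLB group and 1415310 to 2118480 in controls. A factor from the median ratio over genes above 0 in every library went the other way. It was 1.30 to 1.43 in SLB libraries and 0.68 to 0.89 in controls. The sum alone therefore does not show that the scale differed, and several scalings are given below. A 0 in this table may be a failed estimate: a lone 0 beside 10 FPKM or more in the other 3 replicates occurred 36 times among controls and 2 times among SLB libraries. For that reason a gene without signal is called listed at 0. The samples carried leaf transcripts: 5 of 5 identifiers for C4 and Rubisco proteins (phosphoenolpyruvate carboxylase, pyruvate phosphate dikinase, NADP-malic enzyme and 2 Rubisco small subunits) were at 497 FPKM or more in every library. Their summed level was 65724 to 79758 FPKM in controls and 5174 to 9814 FPKM in SLB libraries, and all 5 fell (limma, adjusted p = 3.82e-05 or lower), where 24.6% of all tested genes fell. After quantile normalization, 3 of the 5 fell, NADP-malic enzyme did not pass (adjusted p = 0.417) and pyruvate phosphate dikinase rose (0.80 on the log2 scale, adjusted p = 0.0374), while all 5 fell with median-ratio scaling and with equal totals. In bulk tissue, fewer cells of a type and less RNA per cell cannot be told apart, and this holds for each rise or fall given here.

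All 4 synthase genes were near or at 0 in the control leaf and present in every SLB library. Zx3 was the most abundant, at 186, 145, 149 and 229 FPKM in SLB replicates 1 to 4. In controls it was listed at 0 in replicates 1, 2 and 4 and stood at 0.012 FPKM in replicate 3. The lowest SLB library was thus far above the highest control, and within the SLB group replicates 4 and 1 were the higher ones. The SLB mean was 177 ± 39.3 FPKM (SD, n = 4).

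Zx1 came second, at 102, 85.4, 80.6 and 155 FPKM in SLB replicates 1 to 4, with a mean of 106 ± 34.2 FPKM (SD, n = 4). Its controls were listed at 0 except for 0.008 FPKM in replicate 4. The groups did not overlap, and SLB replicate 4 stood above the other 3. Zx4 followed at 66.3, 56.4, 53.4 and 83.7 FPKM in SLB replicates 1 to 4, with a mean of 64.9 ± 13.7 FPKM (SD, n = 4). Its controls were listed at 0 except for 0.045 FPKM in replicate 1. Again no control came near any SLB library, and SLB replicate 4 was the highest.

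Zx2 was the weakly expressed copy. It was at 6.01, 6.29, 5.32 and 6.42 FPKM in SLB replicates 1 to 4, with a mean of 6.01 ± 0.489 FPKM (SD, n = 4), and was listed at 0 in all 4 controls. The SLB libraries lay close together for this gene. No fold is given for it, because its controls are all listed at 0.

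**Figure D1:**
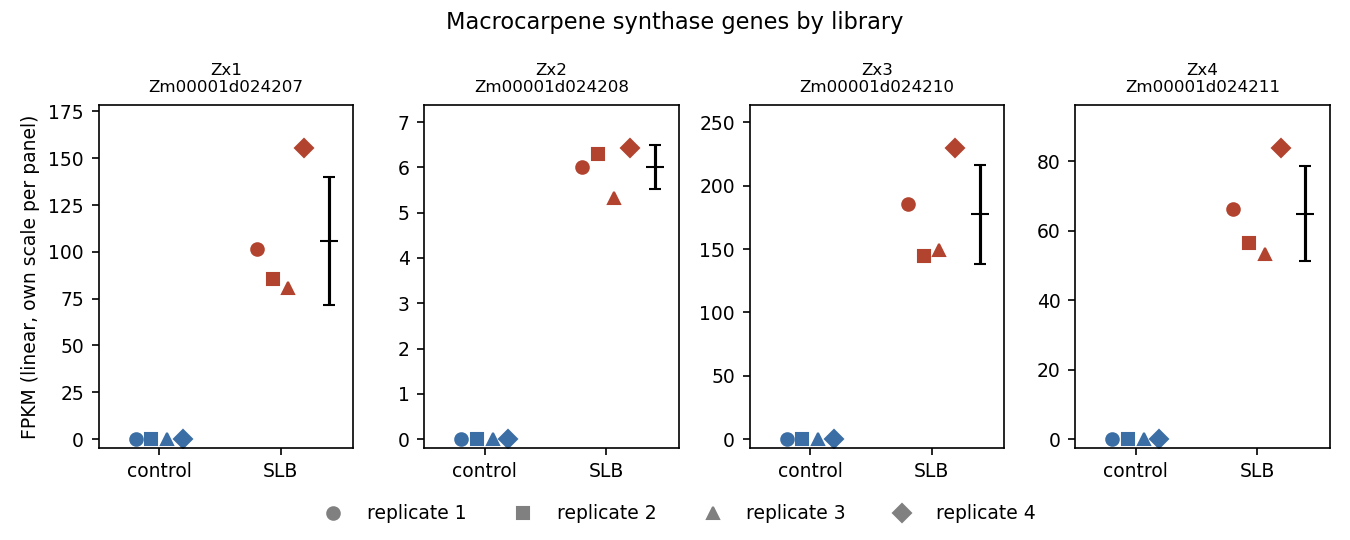
FPKM of Zx1, Zx2, Zx3 and Zx4 in the 4 control libraries (blue) and the 4 SLB libraries (red), with a separate linear axis in FPKM for each gene and a marker shape for each replicate number; the black bar is the SLB mean with its SD. Controls lie at 0 to 0.045 FPKM for all 4 genes, while SLB libraries reach 229 FPKM for Zx3 and 6.42 FPKM for Zx2.

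Each of the 4 genes rose with SLB treatment in limma, a linear model fitted over all tested genes on log2(FPKM + 1), at a Benjamini-Hochberg adjusted p threshold of 0.05. The adjusted p was 2.75e-09 for Zx3, 7.14e-09 for Zx4, 1.4e-08 for Zx1 and 4.4e-08 for Zx2. The count of 4 of 4 has to be read against the whole table, where 56.0% of 19407 tested genes rose and 53.3% had every SLB library above every control, so passing the test does not by itself set these genes apart. The share rising was 40.0% after median-ratio scaling and 74.5% with equal totals, and all 4 synthases rose under both and after quantile normalization. The 4 genes also entered the tested set, which required at least 1 FPKM in at least 4 libraries, through the SLB libraries alone, so they had to differ between the groups.

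The size of the difference places them more narrowly. The SLB minus control difference in log2(FPKM + 1) was 7.45 (SE 0.16) for Zx3, 6.68 (SE 0.20) for Zx1 and 6.005 (SE 0.16) for Zx4, against a median of 0.69 over all tested genes, which median-ratio scaling moved to 0.02, quantile normalization to 0.21 and equal totals to 1.69. These differences ranked 40th, 69th and 109th of the 19407 genes, and Zx2 ranked 1295th. With controls at 0 such a difference mostly restates the SLB level, and it moves with the pseudocount: with 0.1 in place of 1 it was 10.73 for Zx3, 9.97 for Zx1 and 9.19 for Zx4. Of all 44135 listed genes, 25 (0.0566%) were below 0.05 FPKM in every control and at 50 FPKM or more in every SLB library, and Zx1, Zx3 and Zx4 were 3 of them. With 5 FPKM in place of 50, the number was 149 genes (0.338%) and included all 4 synthases. With 100 FPKM, it was 13 genes (0.0295%) and included 1 synthase, Zx3. All these limits were chosen after the values were seen, so the counts describe and do not test.

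**Figure D2:**
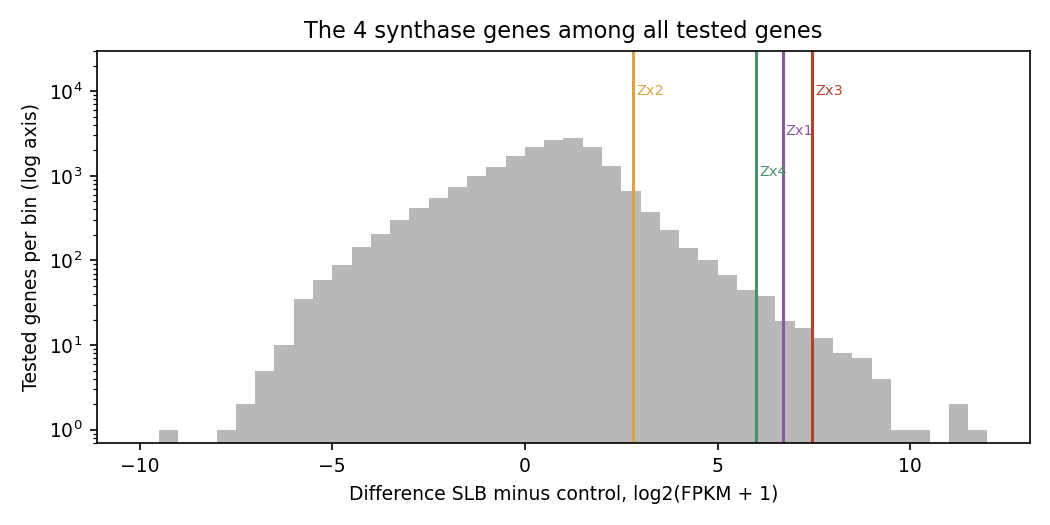
Distribution of the SLB minus control difference in log2(FPKM + 1) over the 19407 tested genes, in bins of 0.5, with the number of genes on a log axis; coloured lines mark the 4 synthase genes. Zx4, Zx1 and Zx3 lie at 6.005, 6.68 and 7.45 in the right tail, and Zx2, whose controls are all listed at 0, lies nearer the bulk at a place set by its SLB level and the pseudocount of 1.

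The rank of a gene within its own library does not depend on how libraries are scaled. In SLB libraries, Zx3 was higher than 98.3% to 99.0% of the listed genes, Zx1 than 96.5% to 98.3% and Zx4 than 94.5% to 96.6%. Zx2 was higher than 71.5% to 73.3%, or 49.1% to 57.8% of the genes above 0 in the same library. In controls, a gene listed at 0 exceeds no other, and the single control values above 0 exceeded at most 49.9% of genes. Most of the genes exceeded were listed at 0. Among genes above 0 in the same control library, those values exceeded 4.36% for Zx4, 0.816% for Zx3 and 0.464% for Zx1. For each of the 4 genes all SLB ranks lay above all control ranks. An exact permutation test of 4 against 4 libraries then gives the smallest two-sided p it allows, 0.0286, with 4 genes tested. These genes had controls at or near 0 and entered the tested set through the SLB libraries alone. That outcome was thus all but fixed, and the p adds no support. The share of all genes without overlap in rank was not computed. In FPKM, 53.3% of tested genes had every SLB library above every control.

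The order Zx3, Zx1, Zx4, Zx2 was the same in all 4 SLB libraries. Zx3 supplied 50.3% ± 1.7 (SD, n = 4) of the summed FPKM of the 4 genes, Zx1 29.5% ± 2.19, Zx4 18.4% ± 0.666 and Zx2 1.75% ± 0.333. In the deposited values, transcripts of the cluster were thus mainly those of 3 genes, with the SD of each share far smaller than the gaps between them. That SD does not measure an error common to all libraries. Zx3 was 1.48 to 1.85 times as high as Zx1, and Zx1 1.51 to 1.85 times as high as Zx4. Zx4 was 8.97 to 13.04 times as high as Zx2. With 4 libraries, a two-sided exact sign test of such an order cannot go below p = 0.125.

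Zx3 and Zx4 kept the steadiest proportion. Their FPKM ratio was 2.8, 2.57, 2.8 and 2.74 in SLB replicates 1 to 4, a mean of 2.73 ± 0.111 (SD, n = 4). After centring each gene on its SLB mean in log2(FPKM + 1), these 2 genes differed by a root mean square of 0.05 over the 4 SLB libraries, the smallest value of the 6 pairs. The same measure was 0.13 for Zx1 with either of them and 0.20 to 0.32 for Zx2 with the other three. Each pair's ratio also differed between SLB and control libraries in the exact permutation test (p = 0.0286 for each of 6 pairs, two-sided, the smallest possible). In controls, however, both genes of a pair are at or near 0, so the control ratio is set by the pseudocount, and that test adds nothing to the SLB values. Close copies can share fragments, and how the authors assigned those is not given in the sources used here. The plants were also of a cultivar other than the B73 line of the genome build. What this did to the split was not tested. The split between the 4 genes, and the small values of Zx2 above all, are therefore uncertain.

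**Figure D3:**
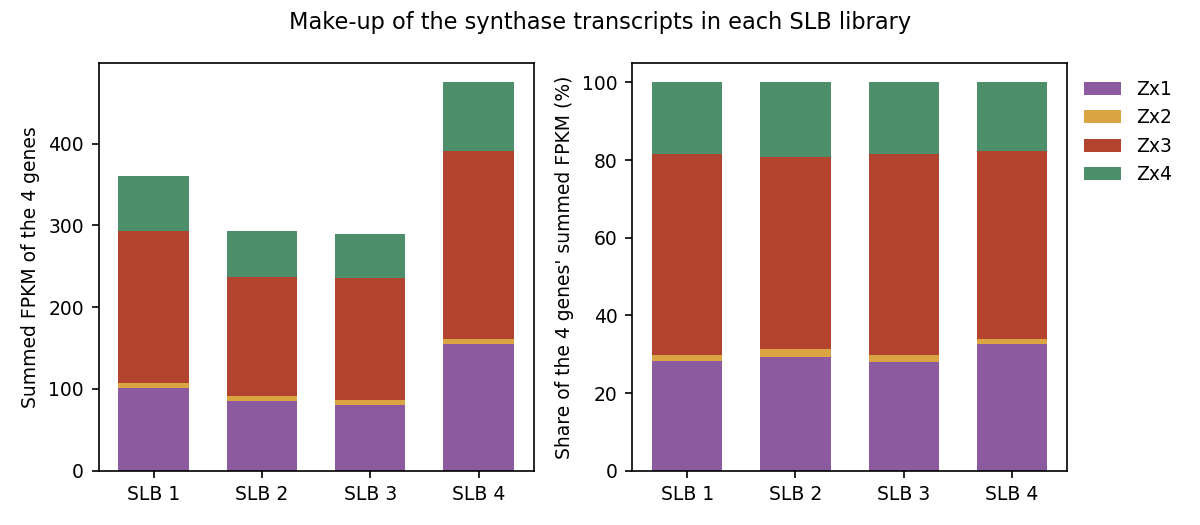
Summed FPKM of the 4 synthase genes in each SLB library (left) and the percentage each gene gives of that sum (right), stacked in the order Zx1, Zx2, Zx3, Zx4 from the bottom. The sum ranges from 289 FPKM in replicate 3 to 475 FPKM in replicate 4, while the share of Zx3 stays between 48.3% and 51.8%.

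Together the 4 genes reached 360, 293, 289 and 475 FPKM in SLB replicates 1 to 4, or 0.0397% to 0.0672% of all summed FPKM. In controls the sum was 0.045, 0, 0.012 and 0.008 FPKM in replicates 1 to 4. SLB replicate 4 was the high library in this group. Its value divided by the mean of the other 3 was 1.74 for Zx1, 1.43 for both Zx3 and Zx4, and 1.09 for Zx2, where the median over 18513 tested genes with an SLB mean of at least 1 FPKM was 1.04 (5th and 95th percentiles 0.564 and 1.71). Zx1 thus stood above 95.3% of those genes in this ratio. The leaf markers were also highest in that library, with a summed level 1.52 times the mean of the other 3, and their part in the synthase values of that library was not tested. Without that library, all 4 genes still rose, with a difference in log2(FPKM + 1) of 7.32 for Zx3, 6.48 for Zx1 and 5.88 for Zx4.

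The spread between SLB libraries differed from gene to gene. The coefficient of variation over the 4 SLB libraries was 32.4% for Zx1, 22.2% for Zx3, 21.1% for Zx4 and 8.14% for Zx2, against a median of 15.4% over the 18513 genes. Zx1 was thus more variable than 83.5% of those genes and Zx2 more variable than 18.8%.

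The later steps of the zealexin pathway were described from 6 identifiers assigned from the published pathway, which neither the deposited table nor the RefSeq gene table pairs with names. Of the 3 identifiers of the CYP71Z cluster, 2 were called higher in SLB (limma, adjusted p = 1.23e-09 for both), beside 56.0% of all tested genes. Like the synthases, these 2 reached the tested set through the SLB libraries alone and had to differ. Zm00001d014134 was at 395, 325, 357 and 394 FPKM in SLB replicates 1 to 4, listed at 0 in 3 controls and at 0.402 FPKM in control replicate 1. Zm00001d014121 was at 105 to 135 FPKM in SLB libraries and listed at 0 in all controls. These 2 genes thus had levels in the range of Zx1 or above, and controls at or near 0, as the synthases did. The third, Zm00001d014136, was too low to be tested, at 0 to 0.477 FPKM in SLB libraries and at 0 in controls.

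All 3 identifiers of the CYP81A cluster were listed at 0 in all 4 controls and were called higher in SLB (limma, adjusted p = 2.18e-07 or lower). They too reached the tested set through the SLB libraries alone, so that call was fixed by the filter, and 56.0% of all tested genes rose. Zm00001d034097 was the highest, at 69.3, 57.1, 54.0 and 58.3 FPKM in SLB replicates 1 to 4, close to the level of Zx4. The other two lay between 15.8 and 37.5 FPKM, above Zx2 and below Zx4 in each SLB library. Summed over its 3 identifiers, the CYP71Z cluster was at 490 ± 43.0 FPKM (SD, n = 4) in SLB libraries and the CYP81A cluster at 105 ± 10.02 FPKM, against 354 ± 86.8 FPKM for the 4 synthases. These RNA levels do not show which pathway the enzymes served, so they cannot be credited to zealexin synthesis alone. SLB replicate 4 divided by the mean of the other 3 was 1.51 for the synthase sum, 1.09 for the CYP71Z sum and 1.14 for the CYP81A sum. A high replicate 4 was found outside the synthases too: the ratio was 2.01 for Zm00001d034096 of the CYP81A cluster, above 97.8% of genes and above each synthase, and 1.44 for KSL4. Whether the synthases differ from the P450 clusters in this was not tested.

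Of the diterpenoid synthases, recalled from the published study in the same way, An2 (Zm00001d029648), which makes the ent-copalyl diphosphate used for phytoalexins, reached 605 ± 16.6 FPKM (SD, n = 4) after SLB, against 0.039 to 0.326 FPKM in controls. KSL2 (Zm00001d041082), a kaurene synthase-like enzyme, reached 165 ± 10.2 FPKM (SD, n = 4), against 0.519 to 1.03 FPKM in controls. KSL4 (Zm00001d032858), the dolabradiene synthase, was at 31.9 to 75.9 FPKM in SLB libraries and listed at 0 in all controls. All 3 were called higher in SLB (limma, adjusted p = 1.09e-07 or lower), beside 56.0% of all tested genes, and all 3 met the filter on low values by their SLB libraries. KSL2 and An2 had a value above 0 in every control library, whereas the macrocarpene synthases had 13 of 16 control values listed at 0. Without depth, a low level and a value of 0 cannot be set apart by a test here.

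**Figure D4:**
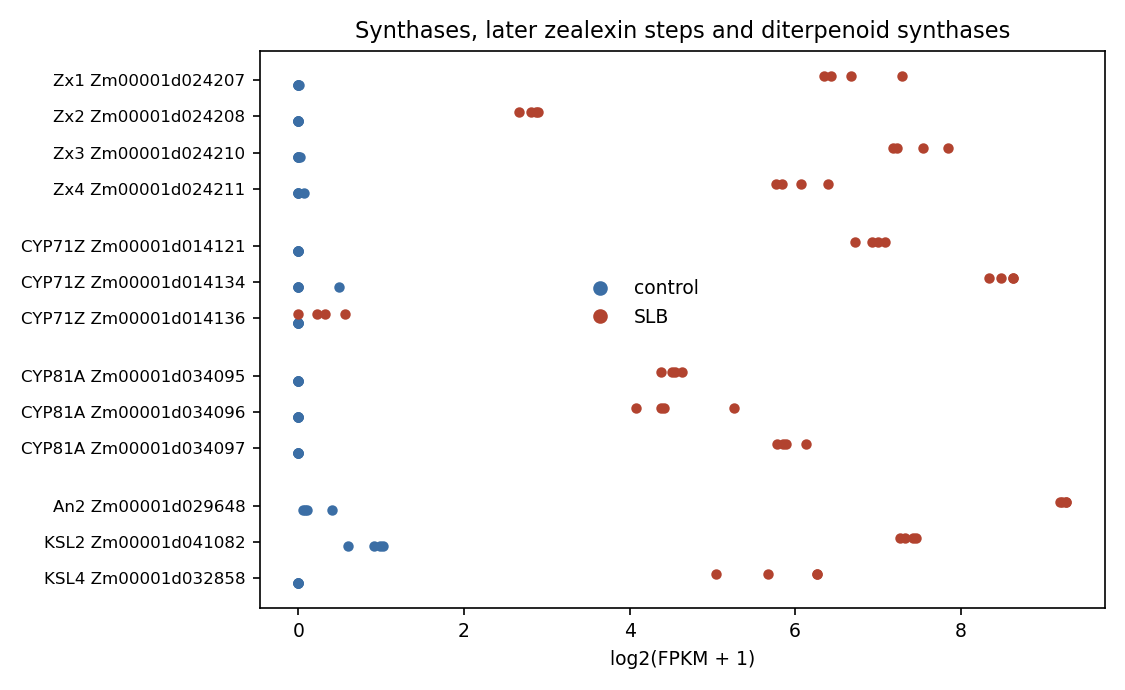
Levels in log2(FPKM + 1) of the 4 synthases, the 3 CYP71Z and 3 CYP81A identifiers of the later zealexin steps, and 3 diterpenoid synthases, each point being 1 library (blue control, red SLB). Controls lie at or near 0 throughout, with KSL2 the highest at up to 1.03 FPKM, and the SLB points of Zx2 and of Zm00001d014136 lie below those of the other genes.

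The identifiers around the cluster had smaller differences than Zx1, Zx3 and Zx4. That consecutive numbers mark adjacent genes was assumed and not checked. Of the 15 numbers from Zm00001d024202 to Zm00001d024216, 4 were not in the table and 7 listed ones were not synthases of this cluster. Zm00001d024209, which stands between Zx2 and Zx3, was listed at 0 in all 8 libraries. Zm00001d024203 was the neighbour with the largest difference, at 5.37 ± 0.289 FPKM (SD, n = 4) after SLB, close to the level of Zx2, and 0.366 to 0.564 FPKM in controls. It rose by 2.13 on the log2 scale (limma, adjusted p = 2.44e-07), and it also rose under each of the 3 rescalings. Zm00001d024212, directly after Zx4, had a mean of 24.8 ± 2.99 FPKM (SD, n = 4) after SLB and 22.3 ± 4.49 FPKM (SD, n = 4) with Tween, and did not pass the test (limma, adjusted p = 0.375). Its call turned with the scaling: it fell after median-ratio scaling (-0.64, adjusted p = 0.00209) and rose with equal totals (1.38, adjusted p = 0.000167). Of the 5 neighbours tested, 2 rose, 1 fell and 2 did not pass, with differences in log2(FPKM + 1) of -1.32 to 2.13. Over all tested genes 56.0% rose and 24.6% fell, so these counts are near the background. The neighbour Zm00001d024204, one of those that did not pass, likewise fell after median-ratio scaling and rose with equal totals. Zx1, Zx3 and Zx4 had larger differences than any of these neighbours, at 6.005 to 7.45. The difference for Zx2 was 2.81, nearer to that of Zm00001d024203 than to those of the other synthases. With controls at or near 0, the differences of all 4 synthases mostly restate their SLB levels and move with the pseudocount.

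**Figure D5:**
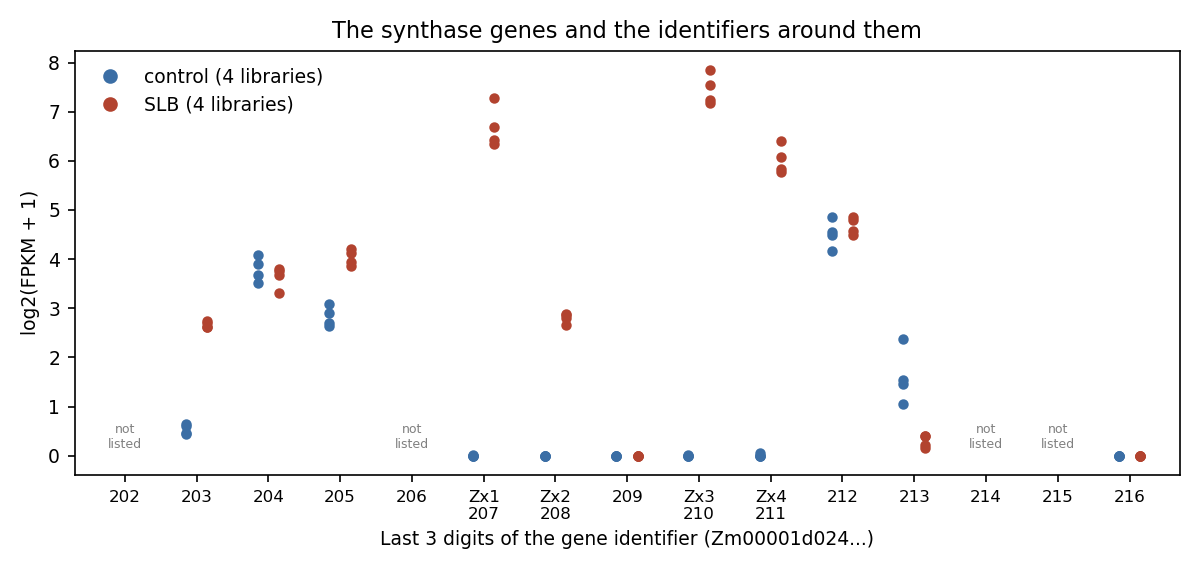
Levels in log2(FPKM + 1) along consecutive identifier numbers, with 4 control points (blue) and 4 SLB points (red) for each listed identifier. Zx1, Zx2, Zx3 and Zx4 lie at 0 to 0.045 FPKM in controls and at 5.32 FPKM or more after SLB, Zm00001d024203 is higher after SLB, and Zm00001d024212 directly after them overlaps between the groups (means of 22.3 and 24.8 FPKM as deposited, with a direction that turns with the scaling).

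The genes with a pattern most like that of the cluster were sought among all tested genes by the root mean square difference between centred log2(FPKM + 1) profiles over the 8 libraries, taking the mean profile of the 4 synthases as the reference. Zx4 itself was nearest, at 0.14. The nearest genes outside the cluster were Zm00001d034097 of the CYP81A cluster, at 0.185, and Zm00001d030548, at 0.186, for which the files give no name. Zm00001d030548 was at 60.3 to 72.4 FPKM in SLB libraries and 0 to 0.18 FPKM in controls. Zx1, Zx3 and Zx2 ranked 99th, 329th and 1150th in this measure, further from the mean profile than many other genes. That profile averages 4 genes with differences of unlike size, and each synthase is part of it. The 8 libraries fall into 2 groups, so likeness in this measure rests mainly on the size of the group difference. These ranks therefore do not show that the synthases follow unlike patterns.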

How the data were processed

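Messenger RNA of 8 maize leaf libraries was sequenced with a stranded Illumina kit, per the labels' protocols. The authors deposited FPKM values for 44135 genes, 1 column per library, with no counts. Per the submitters' processing notes, Trimmomatic 0.32 trimmed the reads and B73 RefGen_v4 was the genome. How fragments were aligned, counted and scaled is not stated in the labels or headers. Depth was sought from steps between low values (0.05 to 0.4 FPKM), but no log2 ratio (bins of 0.02) held more than 3.48% of genes in any of 28 library pairs, so it stays unknown. No library was a duplicate (0.038% equal values at most, above 1 FPKM).

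The 19407 genes that reached 1 FPKM in 4 or more libraries (24728 did not) were tested with limma 3.58.1 in R 4.3.3 on log2(FPKM + 1), with a variance trend, no covariates, two-sided, and Benjamini-Hochberg adjustment over all tested genes. The script was tested on simulated data. Ranks and ratios used exact permutation tests (scipy 1.17.1, Python 3.11.15). Named genes were the 4 synthases, identifiers between them, fixed lists of the later zealexin steps and of diterpenoid synthases, and the 2 most similar profiles; identifiers next to the cluster were summarised, and Zm00001d024203, Zm00001d024204 and Zm00001d024212 were singled out after their values were seen. Members and lists were chosen with earlier results of these data known. The lists' identifiers came from published knowledge. A RefSeq table (Zm-B73-REFERENCE-NAM-5.0) matched 0 of the table's identifiers, so no sequence, product or coordinate is given; it has tps6 and tps11 as entries on chromosome 10 with 1 pseudogene between them, and neither is paired with a Zx gene here. Alternatives were other pseudocounts, filters and scalings, a replicate block, and each library left out in turn.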

Additional observations from a re-analysis of the deposited data

Results flagged for a closer look

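Among 38 groups of 4 values checked, 5 had a library set apart from the remaining 3, where chance gives about 1 in 20 for untied values. In 4 of the 5 the other 3 controls were tied at 0, so that any value above 0 would stand apart: Zx1 at 0.008 FPKM in control replicate 4, Zx3 at 0.012 FPKM in control replicate 3, Zx4 at 0.045 FPKM in control replicate 1, and Zm00001d014134 of the CYP71Z cluster at 0.402 FPKM in control replicate 1. The fifth was An2 at 0.326 FPKM in control replicate 4, where the other controls had 0.039 to 0.072 FPKM. No SLB group of a synthase gene had such a library.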

How the results depend on the processing

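Each of the 4 synthase genes rose past the threshold in all 16 other settings, 64 values in all (2 pseudocounts, 2 filters, 3 scalings, the replicate block and 8 left-out libraries), with adjusted p from 1.78e-10 to 1.07e-05 in limma. Under the main filter these genes entered through the SLB libraries alone and had to differ, so repeating the call says little about stability. Over all tested genes, 56.0% rose in the main setting and 40.0% to 74.5% under the 3 scalings. For the remaining settings that share was not computed. The difference in log2(FPKM + 1) after median-ratio scaling was 7.02 for Zx3, 6.26 for Zx1 and 5.57 for Zx4. With each library left out it was 7.32 to 7.54 for Zx3, 6.48 to 6.80 for Zx1 and 5.88 to 6.09 for Zx4, over the same tested genes. The mean summed FPKM of the 4 genes in SLB libraries, 354 as deposited, was 261 after median-ratio scaling and 609 with equal summed FPKM, which follows from dividing each library by 1 factor, and 314 to 376 with each SLB library left out. Groups did not overlap in rank for 4 of 4 genes under any setting tried for it, which controls at or near 0 all but fixed. The ratio between pairs is set by the pseudocount in controls, so its other settings say nothing about stability. Deviations from the group means correlated at 0.0485, 0.0152, 0.126 and 0.112 between SLB and control libraries of the same number, so the numbers were not treated as pairs; with the number as a replicate block, 4 of 4 genes rose, with adjusted p of 3.75e-06 to 1.07e-05. Depth is unknown, so values near 0 in controls carry an error that FPKM do not show.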
